A study of Mus musculus with 6 samples.

Results

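Cyclin-dependent kinase inhibitors (CDKIs) were examined as a family of 8 genes in control and senescent mouse adult fibroblasts (MAFs). The members were the rows of the gene count table named *Cdkn1a*, *Cdkn1b*, *Cdkn1c*, *Cdkn2a*, *Cdkn2b*, *Cdkn2c*, *Cdkn2d* and *Cdkn3*, 8 of 43346 genes in all. Each name occurred once, and all 8 genes passed the filter on low counts that left 17589 genes for testing. MAFs are primary cells, here taken from ear tissue of female adult C57BL6/J mice and cultured in DMEM with 10% fetal bovine serum at 3% oxygen and used between passages 3 and 8. The 3 senescent samples had received 20 Gy of X-rays and 21 more days of culture, and the 3 control samples were sham irradiated. Both groups had then been synchronized for 2 hours with 100 nM dexamethasone, a glucocorticoid that sets the cellular clock, and RNA was taken 12 hours later. Whether the samples of a group came from separate animals or cultures is not given in the sources used here, so p-values measure the spread between these samples, which may be technical.

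CDKIs stop the cell cycle by acting on the kinases that drive it. The INK4 proteins, encoded by *Cdkn2a* (p16INK4a), *Cdkn2b* (p15INK4b), *Cdkn2c* (p18INK4c) and *Cdkn2d* (p19INK4d), bind CDK4 and CDK6 and keep D-type cyclins from activating them, so that the retinoblastoma protein stays able to hold back E2F factors. The CIP/KIP proteins, encoded by *Cdkn1a* (p21), *Cdkn1b* (p27) and *Cdkn1c* (p57), bind a wider range of cyclin-CDK complexes, and *Cdkn1a* is a classical target of p53 after DNA damage. *Cdkn3* stands apart: it encodes a phosphatase that removes an activating phosphate from CDKs and is known as a gene expressed in dividing cells. *Cdkn2a* also encodes the unrelated protein p19ARF from a separate first exon, and counts per gene do not separate these transcripts.

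In senescent cells *Cdkn1a*, *Cdkn2a* and *Cdkn2b* were higher, and *Cdkn1b*, *Cdkn2c*, *Cdkn2d* and *Cdkn3* were lower. *Cdkn1c* moved least. The family therefore did not move as one: its INK4 and CIP/KIP branches each held genes that rose and genes that fell.

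Promoter sequences are shown for the 3 genes that rose and for *Cdkn3*, the gene that fell most. RefSeq, on build GRCm38.p6 (the assembly that mm10 names), gave start sites for 7 of the 8 members, and windows of 6 of them held bases outside annotated exons. Up to 250 bases before a start are printed 5′ to 3′ on the strand of the gene, without bases that lie in annotated exons of the gene. Capitals mark matches, on either strand, to 7 short motifs. These were a pair of CATG cores with 6 bases between them, as in p53 sites, the E-box CACGTG, the AP-1 site TGACTCA, and the GC box GGGCGG, which Sp1 family factors bind. The other motifs were the CCAAT box, the element TTTGAA that is found in promoters of cell cycle genes, and TTTCGCGC, to which E2F factors bind. The first *Cdkn1a* window lies at chr17:29090729-29090975, plus strand, before the more upstream of its 2 RefSeq starts. The *Cdkn2a* windows lie at chr4:89294654-89294869, minus strand, before the first exon of p19ARF, and at chr4:89282193-89282442, minus strand, before that of p16INK4a. Those of *Cdkn2b* and *Cdkn3* lie at chr4:89311040-89311282, minus strand, and chr14:46760291-46760540, plus strand.
Cdkn1a upstream start: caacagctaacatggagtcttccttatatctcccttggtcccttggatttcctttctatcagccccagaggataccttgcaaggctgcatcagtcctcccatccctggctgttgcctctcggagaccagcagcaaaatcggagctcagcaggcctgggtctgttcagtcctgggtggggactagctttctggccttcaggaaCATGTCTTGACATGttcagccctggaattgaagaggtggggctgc
Cdkn2a p19ARF start: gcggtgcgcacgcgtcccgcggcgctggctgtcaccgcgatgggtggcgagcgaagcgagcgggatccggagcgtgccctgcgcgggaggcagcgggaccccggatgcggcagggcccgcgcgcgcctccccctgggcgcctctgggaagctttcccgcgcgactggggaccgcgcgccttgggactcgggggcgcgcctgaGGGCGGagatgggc
Cdkn2a p16INK4a start: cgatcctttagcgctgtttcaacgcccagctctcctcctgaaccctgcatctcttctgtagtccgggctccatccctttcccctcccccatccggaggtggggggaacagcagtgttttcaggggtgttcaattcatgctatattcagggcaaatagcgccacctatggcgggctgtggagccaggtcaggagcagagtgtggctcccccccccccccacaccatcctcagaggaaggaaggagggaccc
Cdkn2b start: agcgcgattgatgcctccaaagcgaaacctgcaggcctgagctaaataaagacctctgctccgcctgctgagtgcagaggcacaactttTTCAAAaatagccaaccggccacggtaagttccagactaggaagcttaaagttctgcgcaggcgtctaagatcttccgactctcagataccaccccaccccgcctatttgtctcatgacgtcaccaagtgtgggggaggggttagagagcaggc
Cdkn3 start: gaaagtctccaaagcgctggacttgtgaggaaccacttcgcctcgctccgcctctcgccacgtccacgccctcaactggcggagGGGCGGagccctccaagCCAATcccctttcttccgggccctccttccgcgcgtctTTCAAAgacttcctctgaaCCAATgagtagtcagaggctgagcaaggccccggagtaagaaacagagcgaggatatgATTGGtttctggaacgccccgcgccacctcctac
The paired CATG cores occurred once, in the window before the upstream *Cdkn1a* start, and in 0.490% of all 32851 windows of the table. The *Cdkn3* window held 3 CCAAT boxes and 1 TTTGAA element. The window of *Cdkn2b*, a gene that rose, also held 1 TTTGAA element, and that of *Cdkn1b*, not printed, held 2 CCAAT boxes. At least 3 CCAAT boxes were found in 2.79% of all windows, and TTTGAA in 16.0%. The second *Cdkn1a* window, not printed, held 2 GC boxes, which 32.7% of all windows contain at least once. None of these members' windows held the E-box or the AP-1 letters, which occurred in 6.02% and 4.46% of all windows. The shares over all windows were counted on 250 bases each, without leaving out exon bases. Member windows were cut at exons, and that of *Cdkn2d* kept 52 bases. With so few and partly short windows, the absence of these letters cannot be read as a trait of the family. These matches are descriptions of letters, and binding was not measured here.

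RNA-seq measured polyadenylated RNA in stranded libraries. The authors mapped read pairs to mm10 and deposited raw counts per gene, with totals between 50288454 and 82229553 per library. A count of 0 allows up to 3 counts, or at most 0.0613 CPM (counts relative to the TMM-scaled library total) in a single library, for counting error only. Senescent replicate 3 lay 0.386 and 0.400 log2 units (root mean square over genes) from the other senescent libraries, which were 0.258 apart, while control libraries were 0.337 to 0.367 apart. Its squared count differences from senescent replicates 1 and 2 were, at the median, 13.3 and 16.7 times what counting error alone gives, against 1.76 to 4.41 for the other pairs within a group. All 8 members kept their direction and their call without it. Across all tested genes, 70.3% passed an adjusted p of 0.05 (edgeR quasi-likelihood test, Benjamini-Hochberg), 36.2% being higher and 34.1% lower in senescent cells. Of the fibroblast markers, 9 of 9 were present, and their summed level lay between 17810 and 19900 CPM in control and between 6709 and 8011 CPM in senescent libraries, with *Col1a1*, *Col1a2* and *Col3a1* lower and *Dcn* and *Thy1* higher. Chondrocyte markers were abundant in control cells: 6 of 6 were lower in senescent cells, with summed levels of 6725 to 7212 CPM and 587 to 655 CPM. Macrophage markers rose with the senescent group, 5 of 5 tested, from sums of 5.69 to 6.46 CPM in control libraries to 14.1 to 16.6 CPM. Endothelial markers did so too, 4 of 4 tested, from 2.43 to 2.83 CPM to 7.52 to 8.34 CPM. These lists held 6 macrophage and 5 endothelial genes. With sums this low, a marker near 0 in controls could pass the filter only through the senescent libraries. Such a marker could not be called lower, so these counts may be partly fixed by the filter. Summed adipocyte markers were at 95.4 to 101 CPM in control and 50.4 to 55.1 CPM in senescent libraries (1 gene higher and 2 lower of 3 tested), and keratinocyte markers at 16.2 to 17 CPM and 9.41 to 9.82 CPM (1 higher and 1 lower of 4). Schwann cell and melanocyte markers were at 3.51 to 3.85 CPM and 2.70 to 2.83 CPM (2 lower of 2), and muscle markers at 15.6 to 20.9 CPM and 15.01 to 27.7 CPM (1 higher of 2). No listed marker was at 0 in all libraries. In bulk RNA, fewer cells of a type and less RNA per cell cannot be told apart, and the part of these markers in the results was not tested.

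All 8 members passed an adjusted p of 0.05 (edgeR quasi-likelihood test), 3 of them higher and 5 lower, against 70.3% of all genes tested. By the limit in the methods of the study, an unadjusted p under 0.05 with a fold change over 2, 7 of 8 members were called, where 30.1% of all tested genes were. The values of the 2 groups did not overlap for any member, as for 75.3% of tested genes. An exact permutation test of 3 samples against 3, two-sided, gave 0.1 for each member, which is the smallest p this design allows.

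**Figure D1:**
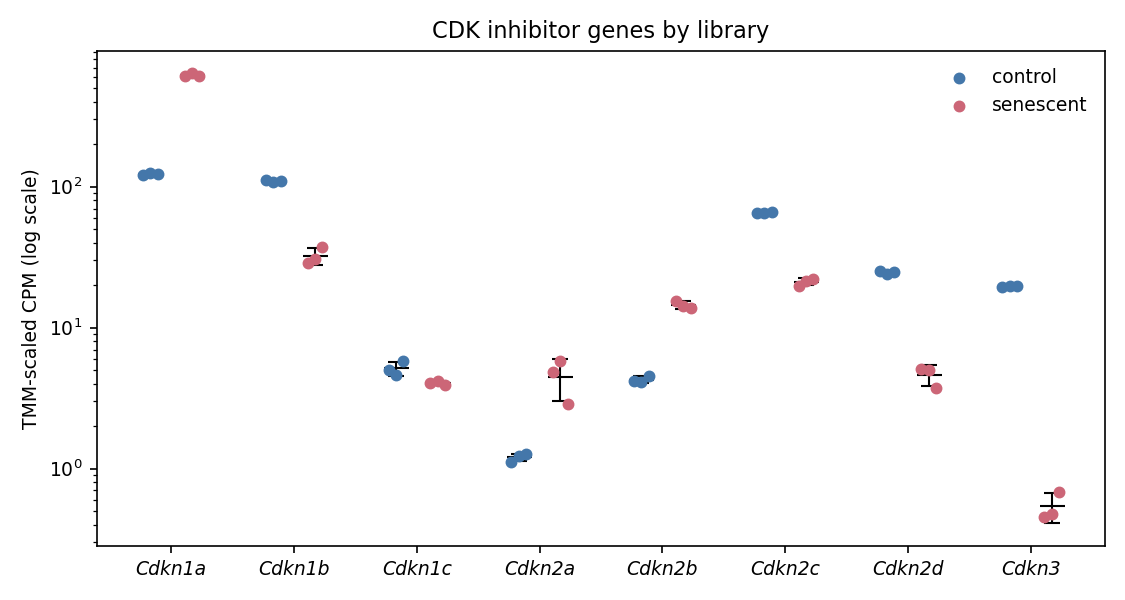
TMM-scaled CPM of the 8 CDKI genes (log axis) in 3 control and 3 senescent libraries, with points for libraries and black bars for mean ± SD. *Cdkn1a* sits near 124 CPM in control and above 608 CPM in senescent libraries, and *Cdkn3* falls from above 19 CPM to below 0.7 CPM.

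Among the CIP/KIP genes, *Cdkn1a* (ENSMUSG00000023067, chromosome 17 of mm10 from 29090979 to 29100722), which encodes p21, had the highest level per length and rose. Its levels were 121, 125 and 124 CPM in control replicates 1, 2 and 3 and 611, 638 and 609 CPM in senescent replicates 1, 2 and 3. Every senescent library was far above every control library, and the libraries of each group lay close together. The mean rose 5.03-fold, from 123 ± 2.01 to 619.5 ± 16.3 CPM (SD, n = 3 per group), with a log2 fold change of 2.33 (SE 0.05, adjusted p = 2.54e-08, edgeR). This increase exceeded that of 91.9% of all genes tested.

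*Cdkn1b* (ENSMUSG00000003031, chromosome 6 from 134920401 to 134925513) encodes p27, which holds CDK2 inactive in resting cells, and it fell. In control replicates 1, 2 and 3 it was at 112, 109 and 110.0 CPM, and in senescent replicates 1, 2 and 3 at 28.6, 30.8 and 37.4 CPM. The groups were clearly separated, with senescent replicate 3 the highest of its group. The mean fell from 110.2 ± 1.52 to 32.3 ± 4.57 CPM (SD, n = 3 per group), 3.42-fold lower (log2 fold change -1.77, SE 0.10, adjusted p = 2.13e-06, edgeR).

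*Cdkn1c* (ENSMUSG00000037664, chromosome 7 from 143458350 to 143461050) encodes p57, is imprinted, and is known as a glucocorticoid-responsive gene. Its levels were 4.99, 4.64 and 5.80 CPM in the control and 4.06, 4.20 and 3.90 CPM in the senescent libraries. The lowest control and the highest senescent library were close to each other. The log2 fold change was -0.34, with a 95% interval from -0.60 to -0.09 (adjusted p = 0.0237, edgeR), and 32.8% of tested genes had a lower value. The call was lost with a replicate block (adjusted p = 0.0587, edgeR), with scaling by library size alone (0.0634), without control replicate 3 (0.0920) or senescent replicate 1 (0.0619), and with a GC term, under which the log2 fold change was -0.09 (0.524). The GENCODE M21 annotation places 1 other gene over *Cdkn1c* and 1 over *Cdkn1a*, and since the strand setting of the counting is not given in the sources used here, their reads cannot be told apart.

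The INK4 genes split into a pair that rose and a pair that fell. *Cdkn2b* (ENSMUSG00000073802, chromosome 4 from 89306289 to 89311032), which encodes p15INK4b, measured 4.19, 4.10 and 4.56 CPM in control replicates and 15.5, 14.3 and 13.8 CPM in senescent replicates 1, 2 and 3. The senescent values lay within a narrow band well above the control values. The mean rose 3.39-fold, with a log2 fold change of 1.76 (SE 0.09, adjusted p = 1.20e-06, edgeR).

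*Cdkn2a* (ENSMUSG00000044303, chromosome 4 from 89274471 to 89294653), the neighbour of *Cdkn2b*, was at 1.12, 1.22 and 1.27 CPM in control replicates and at 4.84, 5.81 and 2.86 CPM in senescent replicates 1, 2 and 3. All senescent libraries were above all control libraries, and replicate 3 was the lowest of the senescent libraries by a wide margin. The counts behind these levels were 56 to 73 reads in control and 241 to 460 in senescent libraries. The mean rose 3.74-fold, from 1.20 ± 0.0738 to 4.50 ± 1.50 CPM (SD, n = 3 per group), with a log2 fold change of 1.90 (SE 0.27, adjusted p = 0.000398, edgeR). Without senescent replicate 3 the log2 fold change was 2.16. How much of the increase came from p16INK4a and how much from p19ARF transcripts cannot be told apart in these counts.

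*Cdkn2c* (ENSMUSG00000028551, chromosome 4 from 109660876 to 109667189) and *Cdkn2d* (ENSMUSG00000096472, chromosome 9 from 21288463 to 21291209) encode the INK4 proteins p18INK4c and p19INK4d, and both fell. *Cdkn2c* had levels of 64.9, 64.7 and 65.7 CPM in control libraries and of 19.8, 21.5 and 22.2 CPM in senescent libraries. *Cdkn2d* had levels of 25.1, 24.01 and 24.8 CPM in control libraries and of 5.09, 5.05 and 3.72 CPM in senescent libraries. For both genes the control libraries were nearly level and every senescent library was far below them. *Cdkn2c* was 3.07-fold lower (log2 fold change -1.62, SE 0.06, adjusted p = 3.08e-07, edgeR) and *Cdkn2d* 5.33-fold lower (-2.42, SE 0.13, adjusted p = 1.49e-06, edgeR).

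*Cdkn3* (ENSMUSG00000037628, chromosome 14 from 46760541 to 46771525), the CDK phosphatase gene, showed the largest change of the family. Its levels were 19.3, 19.9 and 19.8 CPM in control replicates and 0.451, 0.480 and 0.687 CPM in senescent replicates 1, 2 and 3. Control libraries were level, and the senescent libraries, with 25 to 58 reads each, were near the low end of what was tested. The mean was 36.5-fold lower, with a log2 fold change of -5.16 (SE 0.15, adjusted p = 6.08e-08, edgeR), and 0.244% of all tested genes fell further.

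**Figure D2:**
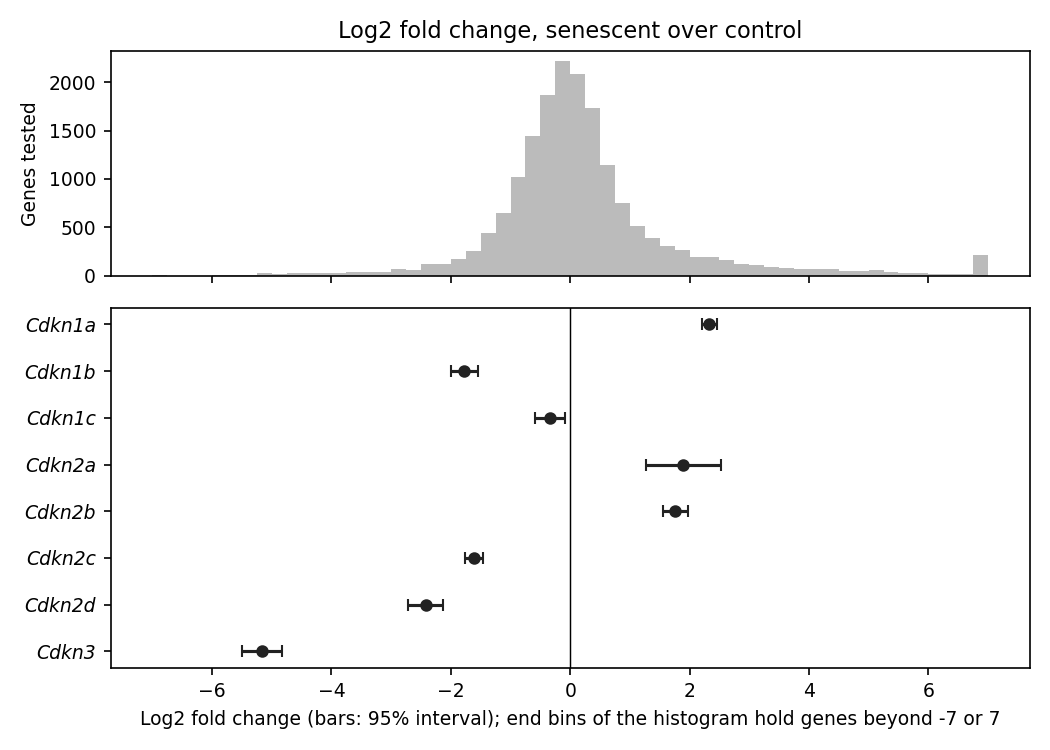
Log2 fold change of senescent over control cells: above, a histogram of all 17589 genes tested, and below, the 8 CDKI genes with 95% intervals. *Cdkn1a*, *Cdkn2a* and *Cdkn2b* lie right of 0, *Cdkn1c* lies at -0.34 with an interval just short of 0, and *Cdkn3* lies in the far left tail.

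To set levels of different genes side by side, CPM were divided by the gene length in kilobases that the deposited table lists. In control cells the order on this per-length scale was *Cdkn1a* at 55.4 ± 0.904, *Cdkn3* at 25.4 ± 0.430, *Cdkn2c* at 24.2 ± 0.194, *Cdkn1b* at 24.2 ± 0.333, *Cdkn2d* at 19.4 ± 0.432, *Cdkn2b* at 3.07 ± 0.174, *Cdkn1c* at 2.66 ± 0.310 and *Cdkn2a* at 1.03 ± 0.0629 CPM per kb (SD, n = 3). The neighbours *Cdkn2c* and *Cdkn1b*, and *Cdkn2b* and *Cdkn1c*, overlapped between libraries. In senescent cells the order was *Cdkn1a* at 279 ± 7.31, *Cdkn2b* at 10.4 ± 0.644, *Cdkn2c* at 7.89 ± 0.457, *Cdkn1b* at 7.09 ± 1.00, *Cdkn2a* at 3.84 ± 1.28, *Cdkn2d* at 3.63 ± 0.612, *Cdkn1c* at 2.10 ± 0.0788 and *Cdkn3* at 0.698 ± 0.167 CPM per kb (SD, n = 3). Here *Cdkn2c* and *Cdkn1b*, and *Cdkn2a* and *Cdkn2d*, overlapped. *Cdkn1a* led in both groups, *Cdkn2b* moved from rank 6 to rank 2, and *Cdkn3* went from rank 2 to rank 8. With total exon lengths from GENCODE M21, *Cdkn3* held rank 5 in control cells and the senescent order was the same.

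Summed over the INK4 genes, the per-length level fell from 47.7 ± 0.672 to 25.8 ± 1.97 CPM per kb (SD, n = 3 per group), although *Cdkn2a* and *Cdkn2b* rose. Their joint share of the sum was 8.60% ± 0.374 in control and 55.2% ± 2.52 in senescent cells. *Cdkn2c* and *Cdkn2d* held 50.8% and 40.6% of it in control and 30.8% and 14.0% in senescent cells. *Cdkn2b* was the largest single part in senescent cells, at 40.5% ± 2.45, and *Cdkn2a* held 14.7% ± 3.996 (SD, n = 3). The summed level of *Cdk4* and *Cdk6*, which encode the kinases that INK4 proteins bind, fell from 100.3 ± 2.82 to 53.2 ± 5.93 CPM per kb. The ratio of INK4 to *Cdk4* plus *Cdk6* RNA was 0.476 ± 0.0165 in control and 0.486 ± 0.0185 in senescent cells, a difference smaller than the SD of either group. This depended on the lengths used: with exon lengths from the annotation the ratios were 0.448 and 0.507, further apart than those SDs. These sums describe RNA, and no test was made on them. *Cdkn2a* counts include p19ARF transcripts, so the INK4 sums, shares and ratios hold an unknown part that does not encode an INK4 protein.

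For the CIP/KIP genes the summed per-length level rose from 82.3 ± 0.703 to 288 ± 7.10 CPM per kb (SD, n = 3 per group). *Cdkn1a* held 67.3% ± 0.688 of it in control and 96.8% ± 0.354 in senescent cells, while *Cdkn1b* went from 29.4% ± 0.614 to 2.46% ± 0.370. *Cdk1* and *Cdk2*, which encode kinases that p21 and p27 hold in check, summed to 72.6 ± 1.79 CPM per kb in control and 9.42 ± 0.519 in senescent cells. The ratio of CIP/KIP to *Cdk1* plus *Cdk2* RNA was 1.14 ± 0.0375 in control and 30.6 ± 1.59 in senescent cells. This ratio rose in every senescent library, where it was between 28.9 and 32.1.

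**Figure D3:**
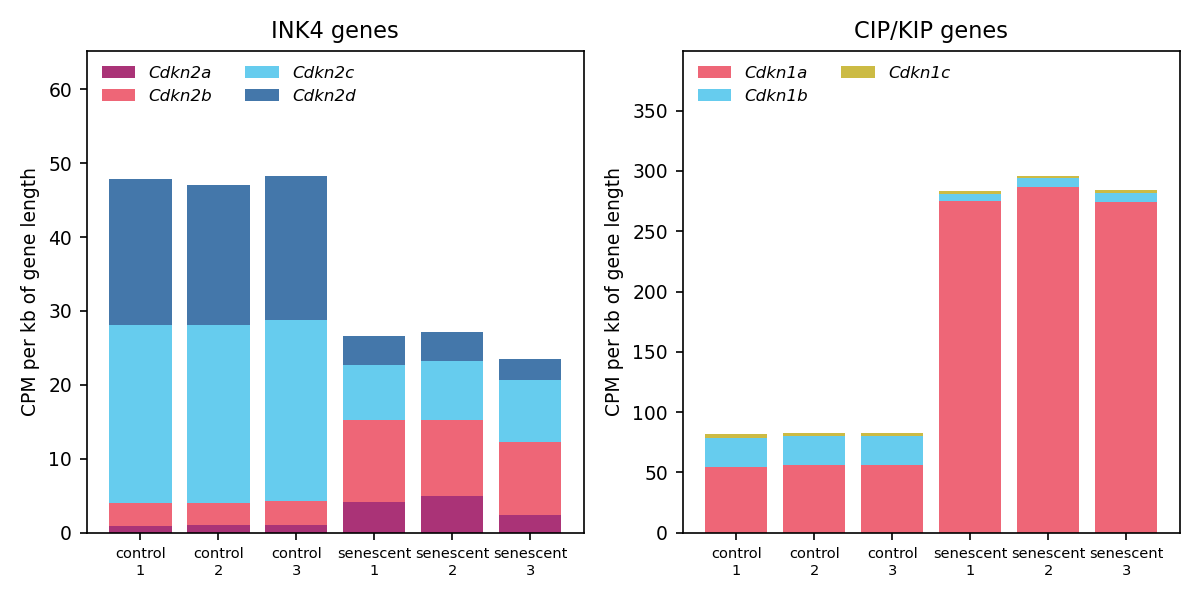
CPM per kb of gene length in each library, stacked over the INK4 genes (left) and the CIP/KIP genes (right). INK4 bars reach 47.0 to 48.3 in control and 23.5 to 27.2 in senescent libraries with *Cdkn2b* as their largest part, and CIP/KIP bars of senescent libraries are almost wholly *Cdkn1a*.

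Of the kinases and cyclins that CDKIs bind, 12 of 13 genes were tested, and 9 were lower and 3 higher (median log2 fold change -1.69, against 0.01 for all genes tested). All 12 passed the test, where 70.3% of all genes tested did, 36.2% being higher and 34.1% lower. *Ccnb2*, *Ccnb1* and *Ccna2*, cyclins of S phase and mitosis, fell, with log2 fold changes of -5.48, -5.18 and -5.37, as did *Cdk1*, the mitotic kinase, at -3.60. The D-type cyclins, which activate CDK4 and CDK6, went both ways: *Ccnd1* rose from 237.5 ± 11.3 to 871 ± 24.8 CPM and *Ccnd2* from 354 ± 6.47 to 862 ± 40.1 CPM, while *Ccnd3* fell from 93.1 ± 5.98 to 63.1 ± 11.9 CPM (SD, n = 3 per group; adjusted p at most 0.00603, edgeR). *Cdk4* fell by 1.01 on the log2 scale and *Cdk6* rose by 0.75.

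CDK activity is also set by phosphorylation, and 8 of 8 such genes passed the test, 6 lower and 2 higher (median log2 fold change -0.88). The share over all genes tested was 70.3%. *Cdc25b* and *Cdc25c*, phosphatases that activate CDK1, fell, with log2 fold changes of -2.98 and -4.65, and so did the opposing inhibitory kinases *Pkmyt1* and *Wee1*, at -4.44 and -1.49. Genes of the CDK-activating kinase went both ways: *Cdk7* and *Ccnh* rose by 0.29 and 0.40, and *Mnat1* fell, at -0.27. Downstream, 13 of 13 RB pocket protein and E2F genes were tested, with 8 lower, 3 higher and 2 not past the test (median log2 fold change -0.43). Thus 11 of 13 passed, against the same 70.3% of all genes tested. *E2f8* and *E2f7*, repressor E2Fs, fell, with log2 fold changes of -4.52 and -4.38, as did the pocket protein gene *Rbl1*, at -2.26, and *E2f2*, at -2.38. *Rb1* itself rose by 0.46.

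Lists of dividing-cell genes gave the setting in which *Cdkn3* fell. All 18 G2/M genes and all 14 S phase genes were lower, with median log2 fold changes of -5.14 and -2.39, where 34.1% of all genes tested were lower. *Cdkn3* at -5.16 was close to the median of the G2/M genes. *Cdkn1b* at -1.77, *Cdkn2c* at -1.62 and *Cdkn2d* at -2.42 lay within the wide range of the S phase genes, from *Mcm5* at -4.16 to *Pcna* at -1.29. The proliferation gene *Mki67* fell from 589 ± 17.3 to 9.60 ± 1.49 CPM (SD, n = 3 per group).

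**Figure D4:**
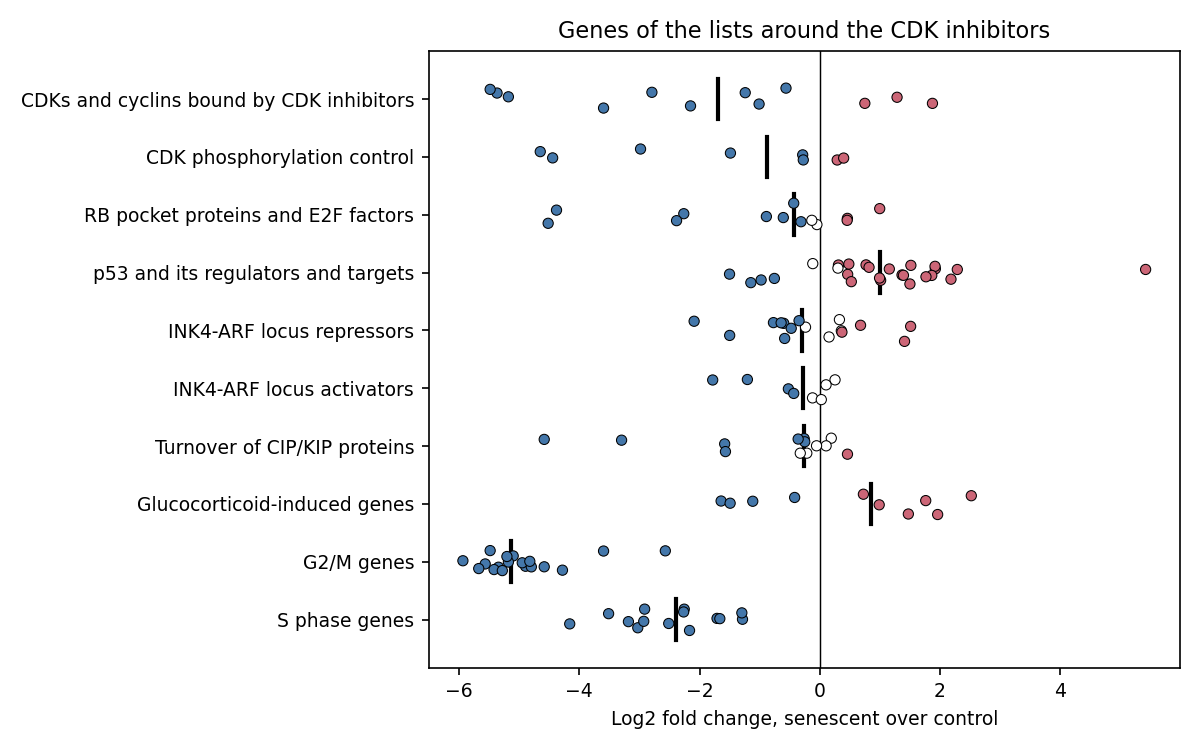
Log2 fold change of each tested gene in 10 gene lists around the CDKIs, with red for higher, blue for lower and white for genes not past an adjusted p of 0.05, and a black bar at the median. G2/M genes centre at -5.14 and p53 genes at 1.00.

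*Cdkn1a* is a target of p53, and of 26 genes for p53, its regulators and its targets, 20 were higher, 4 lower and 2 not past the test (median log2 fold change 1.00). Of all genes tested, 36.2% were higher and 34.1% lower. *Mdm2*, which encodes the ligase that degrades p53, rose from 83.7 ± 2.22 to 317 ± 18.9 CPM, and *Pmaip1*, a pro-apoptotic gene, from 1.19 ± 0.171 to 51.2 ± 6.08 CPM (SD, n = 3 per group). *Perp*, *Plk2* and *Zmat3* rose by 2.29, 1.50 and 1.37 on the log2 scale. *Trp53* RNA measured 148 ± 7.12 CPM in controls against 137 ± 13.3 CPM in the senescent samples (SD, n = 3 each), and the difference did not pass the test (edgeR adjusted p 0.236). *Sesn1* and *Ddit4*, also on the list, fell, with log2 fold changes of -1.15 and -1.50.

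The *Cdkn2a* and *Cdkn2b* locus is known to be silenced by Polycomb complexes. Of 16 repressors of the locus, 8 were lower, 4 higher and 4 not past the test (median log2 fold change -0.29). Of all genes tested, 70.3% passed, 36.2% being higher and 34.1% lower. The 12 of 16 repressors past the test are near that share and are not read as a trait of the list. By DESeq2 and with RLE scaling 14 repressors passed, and with a library left out 10 to 15 did. *Ezh2*, the H3K27 methyltransferase of the repressive complex, fell from 61.4 ± 3.96 to 14.4 ± 1.58 CPM, and *Cbx2* from 15.9 ± 0.690 to 5.61 ± 0.345 CPM, whereas *Tbx3* rose from 1.73 ± 0.140 to 4.92 ± 0.603 CPM (SD, n = 3 per group) and *Bmi1* by 0.68 on the log2 scale. Of 8 activators, 4 were lower and 0 higher by edgeR's quasi-likelihood test (median log2 fold change -0.28). At an unadjusted p under 0.05, 1 was higher, *Dmtf1*, at 0.25 (adjusted p = 0.0539), and by DESeq2 and edgeR's exact test 5 activators passed in either direction. Without senescent replicate 3, or with a GC term, 7 of the 8 did. *Ets2* and *Kdm6b*, activators of *Cdkn2a* in other settings, fell, with log2 fold changes of -1.78 and -1.20.

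p21 and p27 are controlled by degradation as well, and of 13 genes for their turnover, 7 were lower, 1 higher and 5 not past the test (median log2 fold change -0.26). Thus 8 of 13 passed, against 70.3% of all genes tested, and the count is not read as a trait of the list. *Skp2* and *Cks1b*, whose products mark p27 for degradation, fell, with log2 fold changes of -1.58 and -1.57, as did *Dtl*, whose product targets p21 in S phase, at -3.30. *Cul4a* rose by 0.46. Protein levels were not measured here. Because dexamethasone was given to both groups, 10 glucocorticoid-induced genes were read beside *Cdkn1c*: 6 were higher and 4 lower (median log2 fold change 0.86), with *Pdk4* and *Dusp1* rising by 2.52 and 1.96, and *Fkbp5* and *Per1* lower, at -1.64 and -1.11 (*Fkbp5*, from 50.5 ± 2.35 to 16.2 ± 0.496 CPM, SD, n = 3 per group). Of all genes tested, 36.2% were higher and 34.1% lower.

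Within 50 kb of the members lay 27 other genes of the table, none of whose spans touched a member. Of the 18 that were tested, 8 were higher, 7 lower and 3 not past the test. Of all genes tested, 70.3% passed, 36.2% being higher and 34.1% lower. Among the 8, *Gm12606*, *Kcnq1* and *Phlda2* had 0 to 6 reads per control library. They passed the filter only through the senescent libraries and could not have been called lower. Beside *Cdkn1a*, *Trp53cor1* (lincRNA-p21), which begins 12.0 kb away and is known as a p53-induced RNA, measured 3.39, 3.82 and 3.54 CPM in control libraries and 4.06, 3.63 and 4.02 CPM in senescent libraries. The groups overlapped, and the log2 fold change was 0.12 with an interval from -0.11 to 0.36 (adjusted p = 0.310, edgeR). *Srsf3*, at the far end of the window, fell by 0.61.

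The noncoding gene *Gm12606* lies 1.07 kb from *Cdkn2a*. No control library had a count (0 in each), against 43, 61 and 54 in senescent replicates 1, 2 and 3. The senescent mean of 0.728 CPM was at least 12.7-fold higher than the mean level that 3 counts per control library allow. *Gm12606*, *Cdkn2a* and *Cdkn2b* were thus higher together along the same stretch of chromosome 4. *Gm12606* passed the filter on low counts only through the senescent libraries, so it could not have been called lower.

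Beside *Cdkn1b*, the lincRNA gene *1190002F15Rik*, 3.58 kb away, measured 8.62, 10.04 and 10.4 CPM in control libraries and 0.235, 0.265 and 0.332 CPM in senescent libraries. Its log2 fold change lay below that of *Cdkn1b*, the difference being untested (log2 fold change -5.09, interval from -5.46 to -4.73, against -2.002 to -1.54 for *Cdkn1b*). *Gpr19*, on the other side, fell by 1.10, and *2810454H06Rik* was at -0.21 (adjusted p = 0.411, edgeR). Next to *Cdkn2c*, the noncoding *9630013D21Rik*, 3.02 kb away, also fell, by 2.32 on the log2 scale, while *Faf1* on the other side was at 0.06 (adjusted p = 0.502, edgeR). Genes closest to these 2 falling members thus fell too, though the more distant ones did not all do so.

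The imprinted neighbours of *Cdkn1c* moved otherwise than *Cdkn1c*. *Slc22a18*, 12.7 kb away, measured 3.13, 3.38 and 2.92 CPM in control libraries and 8.95, 9.26 and 7.26 CPM in senescent libraries. All senescent libraries were above the control libraries, with a log2 fold change of 1.43 (SE 0.12, adjusted p = 2.48e-05, edgeR). *Phlda2*, an imprinted growth suppressor gene, and *Kcnq1* rose, with log2 fold changes of 2.11 and 1.602, both from only 4 to 6 reads per control library. Both passed the filter only through the senescent libraries and could not have been called lower.

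Around *Cdkn2d*, *Slc44a2* fell by 1.62, *Atg4d* and *Keap1* fell, at -0.65 and -0.33, and *Kri1*, whose span ends 0.494 kb from *Cdkn2d*, rose by 0.42, as did *RP24-496O17.2*, by 1.03. *Cnih1* and *Gmfb*, the neighbours of *Cdkn3*, rose by 0.31 and 1.06 while *Cdkn3* fell. The direction of a member was shared with its nearest tested neighbour at *Cdkn2a*, *Cdkn2b*, *Cdkn1b* and *Cdkn2c*, and not at *Cdkn1c*, *Cdkn2d* and *Cdkn3*. At *Cdkn2a* that neighbour was *Gm12606*, which had no control counts. It passed the filter only through the senescent libraries, so its direction was fixed in advance and the match there carries no weight. The nearest tested neighbour of *Cdkn2b* was *Cdkn2a*, itself a member, and the nearest tested neighbour of *Cdkn1a* did not pass the test. Over all tested genes, 36.2% were higher and 34.1% lower.

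**Figure D5:**
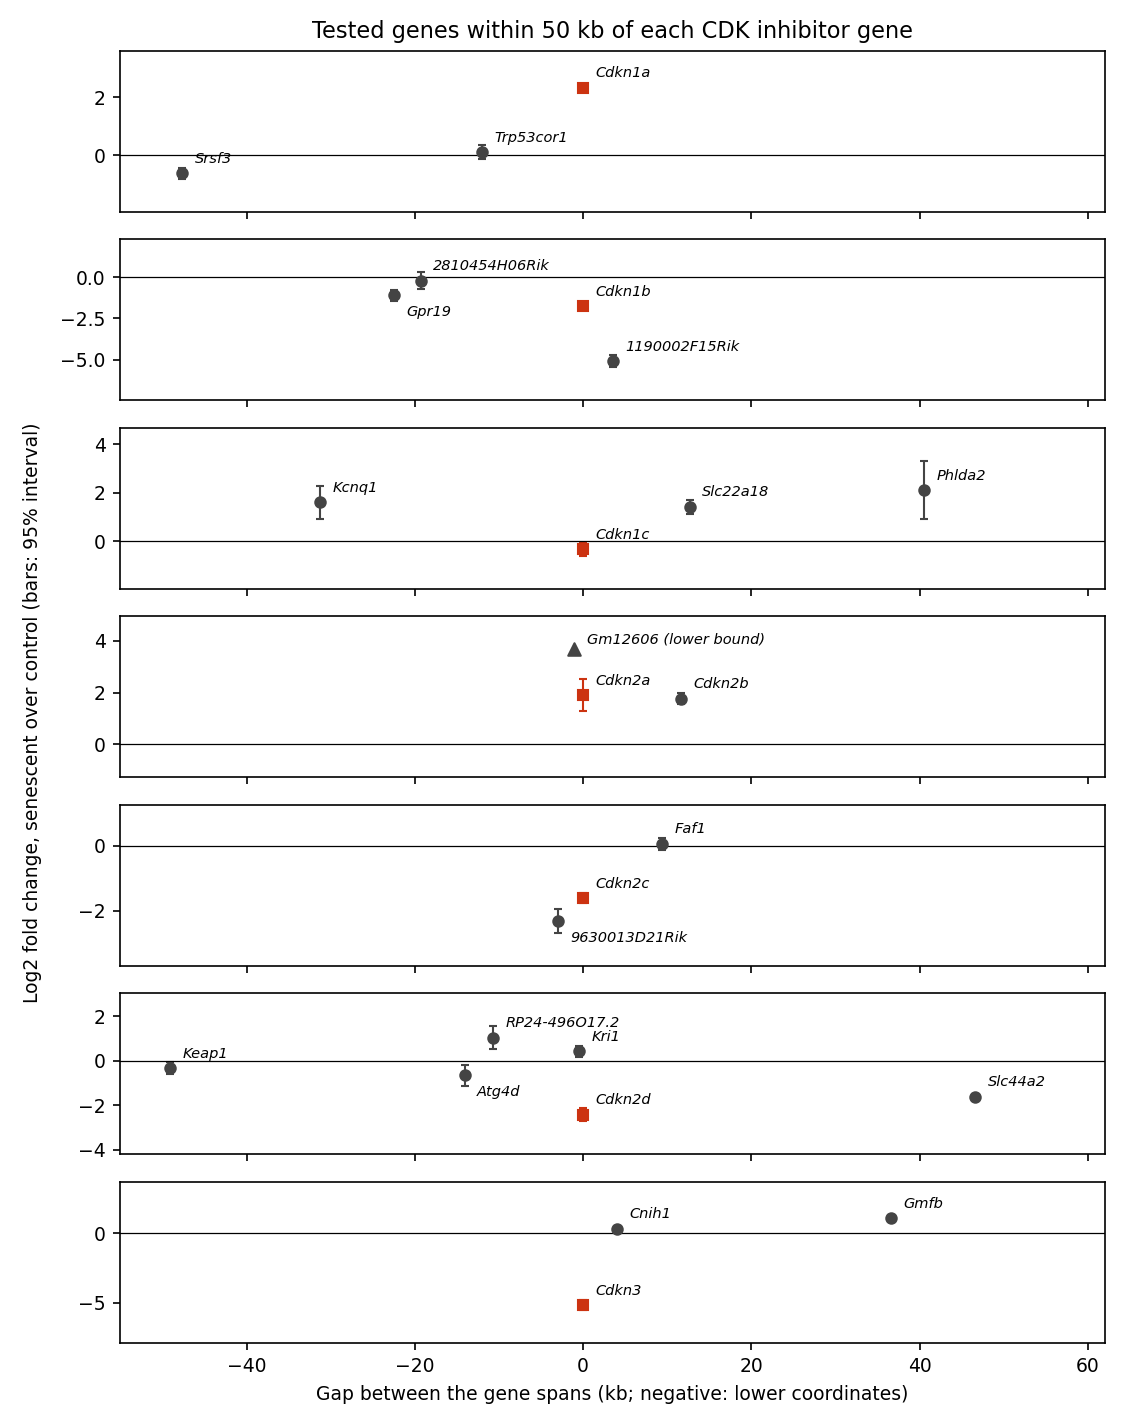
Log2 fold change of each CDKI gene except *Cdkn2b* (red squares) and of the tested genes within 50 kb (grey circles), against the gap between their spans in kb, with 95% intervals. *Cdkn2b* is shown as a grey circle in the panel of *Cdkn2a*. The triangle is the lower bound of *Gm12606*, which had 0 control counts. *1190002F15Rik* lies far below *Cdkn1b*, and the neighbours of *Cdkn1c* lie above 0.

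Genes with the most similar profile were found by the root mean square difference in log2 CPM, relative to the control mean, over 6 libraries, for 13706 genes that averaged 1 CPM or more. *Mical2* and *Cemip* were nearest to *Cdkn1a*, with differences of 0.0355 and 0.0494. For *Cdkn2b* they were *Aen*, itself a p53 target of the list above, and *Lrig1*, at 0.0646 and 0.0660. *Cdkn2a* had no neighbour as close, with *Trmt61a* and *Rbm38* at 0.126 and 0.128. *Cdkn3* was nearest to *Shcbp1* and *Top2a*, at 0.0879 and 0.09999, and *Top2a* is a gene of the G2/M list. *Slc44a1* and *Rpl22l1* were nearest to *Cdkn1b*, *Nasp* and *Cthrc1* to *Cdkn2c*, *Steap3* and *Idh2* to *Cdkn2d*, and *Nme6* and *Cyp27a1* to *Cdkn1c*, at differences from 0.0352 to 0.0822. The 6 libraries form 2 groups, so these measures rest largely on the size of the group difference.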

How the data were processed

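RNA-seq counts of 6 samples were used. For these libraries the authors ran MAPRSeq, in which STAR aligned read pairs to mm10 and Subread summed them by gene, and they deposited the raw counts without normalization. The strand setting and the treatment of multi-mapping reads are not given in the sources used here. Groups and replicate numbers came from the sample labels. Genes were kept by filterByExpr, scaled by TMM and compared with edgeR 4.0.16 (R 4.3.3) by its robust quasi-likelihood test, two-sided, with group as the only term and Benjamini-Hochberg adjustment over 17589 genes. Standard errors were taken from the fold change and the F statistic. CPM are counts over TMM-scaled library totals. The steps were tested on simulated data. All 8 members are named, with up to 5 genes of each list that have the smallest p past the threshold (further list genes named, among them *Ccnd3*, *Cdk4*, *Cdk6*, *Bmi1*, *Rb1*, *Trp53*, *Sesn1*, *Ddit4* and *Dmtf1*, were chosen after their values were seen), every tested neighbour within 50 kb and the 2 nearest profiles. Members, lists, tests and motifs were chosen with earlier results of these data known. Library totals were 50288454 to 82229553 counts, and intervals cover counting error and the spread between libraries. Alternatives were RLE scaling, library size alone, no filter, a minimum of 10 counts per library, DESeq2 1.42.0, the exact test of edgeR, a replicate block, a loess term for GC content of the longest GENCODE M21 transcript, each library left out and exon lengths from the annotation.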

Additional observations from a re-analysis of the deposited data

How the results depend on the processing

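*Cdkn1a*, *Cdkn1b*, *Cdkn2a*, *Cdkn2b*, *Cdkn2c*, *Cdkn2d* and *Cdkn3* kept their direction and their call under all 14 alternatives. *Cdkn1c* kept its direction and lost its call in 5 of them: its log2 fold change was -0.26 with library size alone, -0.34 with the replicate block and -0.094 with the GC term, and between -0.42 and -0.25 with a library left out. Its adjusted p ranged from 0.0129 to 0.524 over the alternatives (edgeR and DESeq2). The INK4-ARF activators past the test were 4, but 7 with the GC term, and between 4 and 7 with a library left out. Deviations from the group mean correlated at -0.145, 0.135 and -0.120 between the libraries of replicate numbers 1, 2 and 3. With 3 libraries per group, these values cannot tell whether the numbers pair the samples. With the replicate block, 11624 genes passed in place of 12365. The block changed no other call of a member. With exon lengths from the annotation, the summed INK4 level was 44.0 CPM per kb in control cells, the CIP/KIP level 61.4 in control and 183 in senescent cells, the INK4 ratio 0.448 and 0.507, and the CIP/KIP ratio 1.42 and 37.4. Only the gene lengths differed between these 2 settings. The annotation gave longer totals for *Cdkn1a* (3553 against 2223 bases) and *Cdkn2d* (1574 against 1271). It gave equal ones for *Cdkn2a*, *Cdkn2c* and *Cdkn1b*. The ratios also depend on the lengths of the kinase genes. Few reads lay behind *Cdkn2a* in control libraries (56 to 73) and *Cdkn3* in senescent libraries (25 to 58), and fewer behind *Phlda2* and *Kcnq1* (4 to 6 per control library).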
